A study of Mus musculus with 16 samples.

Results

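The proteasome is the barrel-shaped protease that breaks down proteins carrying a ubiquitin chain. Its core particle is built of rings of α and β subunits, some of the β subunits carry the active sites, and the 19S regulatory particle recognises, unfolds and feeds in the substrate. In cells exposed to interferon the catalytic β subunits are replaced by the immune subunits Psmb8, Psmb9 and Psmb10, which are also abundant in leukocytes and alter the peptides cut for display on MHC class I molecules.

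The transcripts of 39 genes that encode proteasome subunits, proteasome activators and the maturation protein Pomp were followed in mouse liver. They were chosen by name, and each was read from its brightest probe set over 16 arrays. A probe set annotated to that gene alone was present for 38 of the 39, among 18193 genes in all. The exception was Psme2, whose probe set is annotated to more than 1 gene and was not analysed here. The 38 comprised 14 standard core subunits (7 α and 7 β), 3 immune β subunits, 17 subunits of the 19S particle (6 ATPases of its base and 11 non-ATPase subunits), 3 activators and Pomp.

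The livers came from male mice aged 12 to 20 weeks. Wild-type mice were 129S1/SvImJ and mice lacking the nuclear receptor PPARα (PPARα-null) were labelled 129S4/SvJae, so a difference between genotypes and one between these substrains cannot be told apart. Wy14643, a synthetic PPARα agonist, was mixed into the food at 0.1% by weight for 5 days, and control mice received normal food for the same time. There were 4 mice in each of the 4 groups, 1 array per mouse, with no pooling. The null mice lack the receptor in every tissue, and the samples are whole liver, in which fewer cells of a type and less RNA per cell cannot be told apart.

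The arrays were close to each other. Array medians lay between 4.42 and 4.72 on the intensity scale, and log2 values of arrays of the same group correlated at 0.987 to 0.995 over probe sets. The brightest Ppara probe set was at a mean of 9.92 ± 0.13 (SD, n = 4) in wild-type control livers and 9.29 ± 0.39 in null control livers on the log2 scale, a difference of 0.63 (limma, adjusted p = 0.140), whereas on Wy14643 the wild type was higher by 1.15 (adjusted p = 5.10e-05). Whether this probe set lies in the deleted part of the gene is not given in the sources used here, so it does not check the labels. The summed intensity of 13 hepatocyte markers was 85680 to 113800 per array and that of 14 lymphocyte markers 46.65 to 56.9. All 38 proteasome transcripts had a mean log2 value above 4, and their SD within a group was small, with a median of 0.07 to 0.09 in the 4 groups against 0.12 to 0.18 for the 7451 genes above the same level.

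In wild-type mice, 5 days of Wy14643 raised transcripts of the standard core and of the 19S particle and lowered those of the immune β subunits. With a call set at an adjusted p under 0.01 and a change of over 1.5-fold, 10 of the 38 transcripts rose and 3 fell. The risers were the core subunits Psma5, Psma7, Psmb2, Psmb4 and Psmb7, the 19S subunits Psmc4, Psmd3, Psmd4 and Psmd14, and the activator Psme1. The 3 that fell were the immune subunits Psmb8, Psmb9 and Psmb10. The share called higher was 26.3% of the members against 7.72% of all genes and 12.9% of genes with a mean log2 value above 4, and the share called lower was 7.89% against 6.74% and 14.8%. Without a minimum fold, 28 rose and 3 fell at an adjusted p under 0.01 (limma), that is 73.7% and 7.89% of the members, against 9.91% and 9.07% of all genes and 17.7% and 19.9% of the brighter genes. The median change over the 38 was 0.42 on the log2 scale (0.44 without the immune subunits), against -0.03 over all genes and -0.05 over the brighter ones.

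Most of these changes were of modest size and uniform between mice. In 32 members each wild-type liver on Wy14643 was above each wild-type control liver, and in 3 each was below, where 14.4% of all genes were separated upwards and 14.7% downwards (25.4% and 28.2% of the brighter genes). Relative to the wild-type control mean, the median standard core transcript of each array lay between 0.48 and 0.59 in the wild-type livers on Wy14643. It lay between -0.05 and 0.04 in wild-type controls, between -0.14 and 0.01 in null controls, and between -0.11 and 0.03 in null livers on Wy14643. The same median for the 19S particle lay between 0.36 and 0.53 in wild-type livers on Wy14643, and between -0.10 and 0.08 in the other 3 groups.

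**Figure D1:**
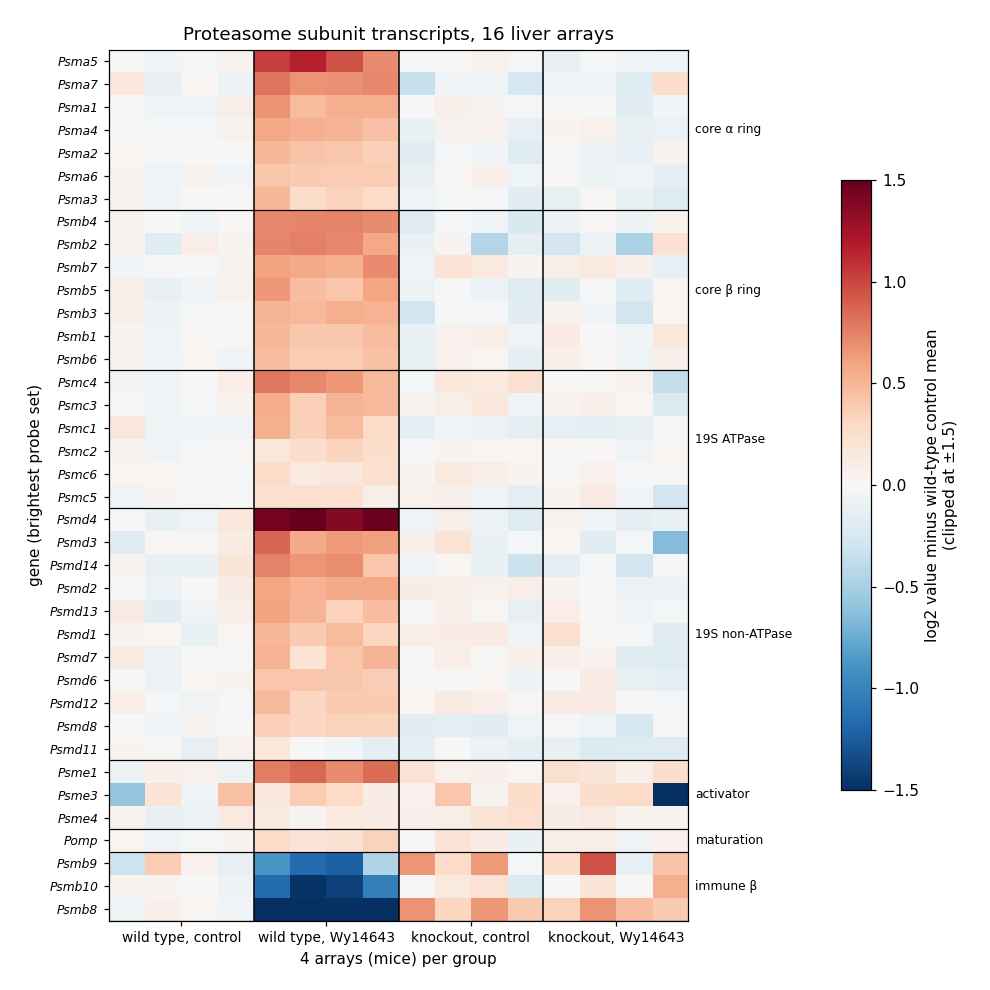
Log2 value of each of the 38 proteasome transcripts (rows, grouped by class) in each of the 16 livers (columns, 4 per group), minus the mean of the wild-type control livers and clipped at ±1.5. The 4 wild-type livers on Wy14643 stand out, above control in the core and 19S rows and below it in the 3 immune β rows, while Psmd11, Psme3 and Psme4 differ from control by -0.00, 0.24 and 0.11.

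**Figure D2:**
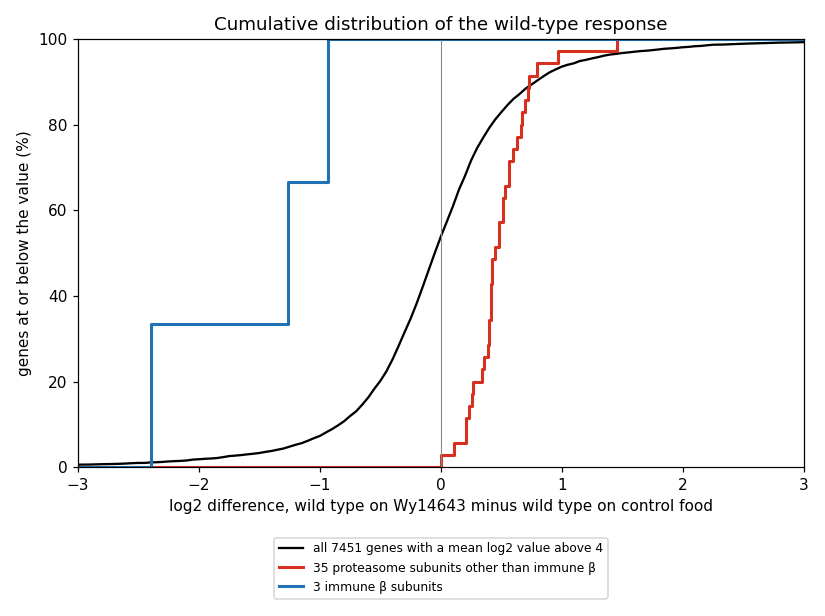
Cumulative share of genes (%) at or below each log2 difference between wild-type livers on Wy14643 and on control food, for the 7451 genes with a mean log2 value above 4, the 35 proteasome transcripts other than immune β, and the 3 immune β subunits. The 35 lie between -0.00 and 1.46 with a median of 0.44, and the 3 lie between -2.40 and -0.93.

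The outer rings of the core particle are made of α subunits, which gate the entry of substrate. All 7 rose at an adjusted p under 0.01, by 0.36 (Psma3) to 0.97 (Psma5) on the log2 scale. Among all genes 9.91% rose at that limit, and among the brighter genes 17.7%. Psma5 was at 9.50, 9.45, 9.47 and 9.54 in the wild-type control livers and at 10.53, 10.66, 10.44 and 10.20 in those on Wy14643. In null livers it was at 9.46, 9.48, 9.55 and 9.46 on control food and at 9.38, 9.46, 9.44 and 9.43 on Wy14643. The wild-type livers on Wy14643 were thus clear of the other 12, which lay together. The rise was 1.96-fold (0.97 ± 0.09, log2 difference ± SE, adjusted p = 3.06e-07), and a second bright Psma5 probe set rose by 1.10. Psma7 rose 1.65-fold (adjusted p = 5.69e-05), from 9.30 to 9.58 in controls to 10.09 to 10.22 on Wy14643. At the lower end, Psma3 rose 1.28-fold (0.36 ± 0.08, adjusted p = 0.00339), from 11.01 to 11.09 to 11.33 to 11.56, again without overlap.

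The inner rings are made of β subunits, of which Psmb5, Psmb6 and Psmb7 carry the chymotrypsin-like, caspase-like and trypsin-like sites. All 7 standard β subunits rose at an adjusted p under 0.01, by 0.42 (Psmb6) to 0.73 (Psmb4). The share at that limit was 9.91% of all genes and 17.7% of the brighter ones. Psmb4, a structural subunit, was at 11.02, 10.96, 10.90 and 10.98 in wild-type controls and at 11.69, 11.70, 11.71 and 11.68 on Wy14643. The null livers were at 10.78, 10.93, 10.90 and 10.74 on control food and at 10.89, 10.98, 10.88 and 11.02 on Wy14643. The wild-type livers on Wy14643 were nearly identical to each other and above the other 12. The rise was 1.66-fold (0.73 ± 0.08, adjusted p = 1.27e-06). Psmb2, another structural subunit, rose 1.62-fold (0.70 ± 0.14, adjusted p = 0.000921). The catalytic subunits Psmb5, Psmb6 and Psmb7 rose 1.45-fold, 1.34-fold and 1.52-fold, with adjusted p-values of 0.000212, 0.000671 and 4.86e-05 (limma). Psmb7 was past the 1.5-fold limit by little and was not called without wild-type Wy14643 replicate 4, where its difference was 0.57. Pomp, the chaperone that guides assembly of the β ring, differed by 0.26 ± 0.08 (adjusted p = 0.0328), short of the threshold, although the groups did not overlap.

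The base of the 19S particle is a ring of ATPases, Psmc1 to Psmc6, that unfolds the substrate. Of the 6, Psmc1, Psmc3 and Psmc4 rose at an adjusted p under 0.01, and Psmc4 also passed the fold limit. Of all genes 9.91% rose without the fold limit and 7.72% with it, and of the brighter genes 17.7% and 12.9%. Psmc4 was at 9.11, 9.12, 9.16 and 9.27 in wild-type controls and at 9.95, 9.88, 9.81 and 9.65 on Wy14643. Null livers had values of 9.15, 9.33, 9.31 and 9.40 on control food and at 9.16, 9.18, 9.23 and 8.81 on Wy14643, so that the fourth null liver on Wy14643 was the lowest of the 16. The rise in wild type was 1.58-fold (0.66 ± 0.10, adjusted p = 0.00012). It fell short of the fold limit when all Psmc4 probe sets were averaged, since the second bright one differed by 0.48. Psmc2, Psmc5 and Psmc6 differed by 0.26, 0.21 and 0.21, with adjusted p-values of 0.0163, 0.146 and 0.0489. In all 6 ATPases the wild-type livers on Wy14643 lay above their controls, as in 14.4% of all genes and 25.4% of the brighter genes.

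The non-ATPase subunits of the 19S particle form its lid and hold its ubiquitin receptors. Of the 11, 10 rose at an adjusted p under 0.01, and Psmd4, Psmd3 and Psmd14 also passed the fold limit. The shares without and with the fold limit were 9.91% and 7.72% of all genes, and 17.7% and 12.9% of the brighter ones. Psmd4, a receptor for ubiquitin chains, was at 9.50, 9.39, 9.46 and 9.68 in wild-type controls and at 10.95, 11.04, 10.89 and 10.98 on Wy14643. In null livers it was at 9.45, 9.60, 9.44 and 9.32 on control food and at 9.56, 9.47, 9.37 and 9.41 on Wy14643. Its 4 wild-type livers on Wy14643 stood more than 1 log2 unit above the other 12. The rise was 2.74-fold (1.46 ± 0.09, adjusted p = 1.40e-09), the highest of the 38, and a second bright Psmd4 probe set rose by 1.42.

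Psmd3, a scaffold subunit of the lid, was at 7.41, 7.61, 7.61 and 7.71 in wild-type controls and at 8.46, 8.15, 8.23 and 8.20 on Wy14643. The null livers were at 7.66, 7.79, 7.49 and 7.56 on control food and at 7.60, 7.41, 7.56 and 6.94 on Wy14643. The groups on Wy14643 were well apart, and the fourth null liver was again the lowest. The rise in wild type was 1.60-fold (0.67 ± 0.13, adjusted p = 0.00101). Psmd14, the enzyme that strips the ubiquitin chain from the substrate, rose 1.55-fold (0.63 ± 0.11, adjusted p = 0.000258), from 8.83 to 9.13 to 9.37 to 9.69. Psmd11, another lid subunit, was the exception in this class: it was at 10.51 to 10.69 on control food and 10.50 to 10.80 on Wy14643, a difference of -0.00 (adjusted p = 0.992). Its other probe sets above a mean log2 value of 4 differed by 0.09, 0.03 and 0.48, none at an adjusted p under 0.01.

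Activators cap the core particle in place of the 19S particle. Psme1, the α chain of the PA28 activator and itself a gene induced by interferon-γ, was at 9.09, 9.24, 9.23 and 9.09 in wild-type controls and at 9.93, 10.02, 9.87 and 10.00 on Wy14643. Null livers had values of 9.37, 9.23, 9.24 and 9.18 on control food and at 9.41, 9.34, 9.24 and 9.43 on Wy14643. It moved with the standard core and against the immune β subunits, with a 1.73-fold rise (0.79 ± 0.08, adjusted p = 9.69e-07) and no overlap with the other groups. Psme4, the PA200 activator, differed by 0.11 (adjusted p = 0.425) at its brightest probe set, but by 0.27 and 0.41 at 2 others, of which the last passed the threshold (adjusted p = 0.00208). Psme3, the nuclear activator PA28γ, was the most variable member at its brightest probe set, with a difference of 0.24 ± 0.33 (adjusted p = 0.703). A second Psme3 probe set, with a mean log2 value of 6.48, differed by 0.29 ± 0.12 (adjusted p = 0.0977).

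The immune β subunits went the other way. Psmb8, which takes the place of Psmb5, was at 6.44, 6.58, 6.53 and 6.46 in wild-type controls and at 4.08, 4.38, 3.95 and 4.02 on Wy14643. In null livers it was at 7.17, 6.82, 7.16 and 6.89 on control food and at 6.84, 7.18, 6.97 and 6.90 on Wy14643. The groups formed 3 levels: null livers highest whatever the food, wild-type controls below them, and wild-type livers on Wy14643 more than 2 log2 units lower still. The fall in wild type was 5.26-fold (-2.40 ± 0.11, adjusted p = 4.47e-11), the strongest change of the 38. A second, dim Psmb8 probe set with a mean log2 value of 2.46 differed by -0.04.

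Psmb10, which takes the place of Psmb7, was at 7.52, 7.52, 7.48 and 7.40 in wild-type controls and at 6.32, 6.01, 6.08 and 6.45 on Wy14643. The null livers were at 7.49, 7.62, 7.70 and 7.28 on control food and at 7.48, 7.67, 7.49 and 8.03 on Wy14643. The wild-type livers on Wy14643 lay below the other 12, with a 2.41-fold fall (-1.27 ± 0.13, adjusted p = 1.19e-06). Psmb9, which takes the place of Psmb6, was at 4.66, 5.35, 5.03 and 4.85 in wild-type controls and at 4.08, 3.80, 3.74 and 4.52 on Wy14643. Null livers had values of 5.64, 5.25, 5.61 and 4.94 on control food and at 5.23, 5.93, 4.85 and 5.40 on Wy14643. This was the dimmest and one of the noisiest members, and its groups in wild type were separated only narrowly. The fall was 1.91-fold (-0.93 ± 0.23, adjusted p = 0.00581), and it was not called without wild-type control replicate 2, 3 or 4 or wild-type Wy14643 replicate 1, 2 or 3, nor with the replicate number as a block, nor with an offset of 16 added to the intensities. Its difference lay between -1.10 and -0.81 over all 16 fits that left out 1 array.

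Immune and standard catalytic subunits compete for the same place in the ring, so the difference between the log2 values of each such pair was taken within each array and compared between groups with an exact two-sided permutation test (70 orders, smallest possible p = 0.0286), adjusted over 12 tests with a limit of 0.05. In wild type, Psmb8 minus Psmb5 fell by 2.93 on Wy14643, a 7.61-fold lower ratio. Psmb10 minus Psmb7 fell by 1.87, a 3.65-fold lower ratio. Psmb9 minus Psmb6 fell by 1.35, a 2.55-fold lower ratio. In each pair the 4 livers on Wy14643 lay below the 4 controls, with p = 0.0286 by the exact test and an adjusted p of 0.049. This outcome was fixed in advance, since each immune subunit alone was separated downwards and each partner upwards. The pair test thus adds no evidence to the tests of the single genes. In null mice the same differences were -0.05, 0.18 and -0.07, with overlapping groups and exact p-values of 0.543 to 0.771. The 7 pair tests with an adjusted p under this limit each had the smallest p that the test can give. None stayed under it without wild-type control replicate 1, 3 or 4, including those between genotypes on Wy14643. These use no wild-type control array, so they were lost through the adjustment over the 12 tests.

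**Figure D3:**
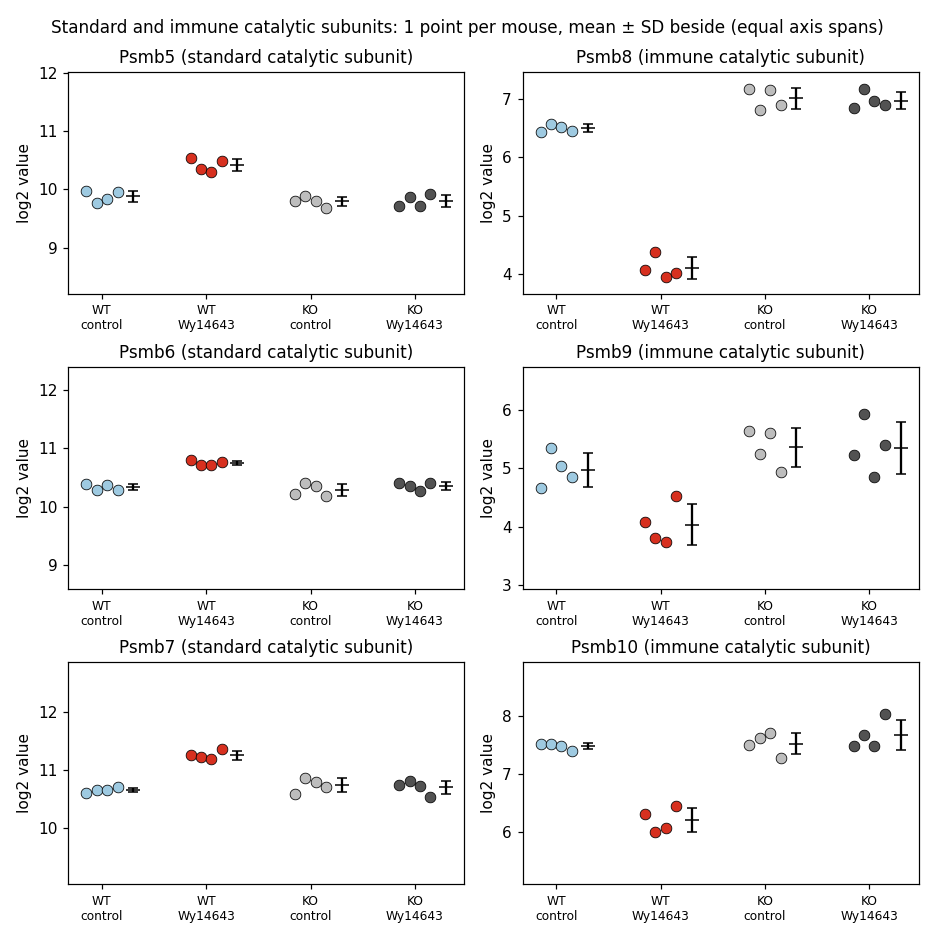
Log2 value of each standard catalytic subunit (left) and of the immune subunit that replaces it (right) in the 4 groups, 1 point per mouse with the mean ± SD (n = 4) beside it. Every panel spans the same range on its y axis, and in each row the wild-type livers on Wy14643 are above their controls on the left and below them on the right.

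In PPARα-null mice no proteasome transcript passed the test. With limma, 0 of the 38 were called, 0 were at an adjusted p under 0.01 whatever the fold, and 0 had an unadjusted p under 0.05. Among all genes 0.0275% were called higher (0.0671% of the brighter genes) and 0% lower, with or without a minimum fold, and 10.3% had an unadjusted p under 0.05 (15.4% of the brighter genes). The median difference was -0.01, with a range from -0.46 (Psme3) to 0.18 (Psma7), and the lowest adjusted p was 0.576. The 95% intervals bound what could have been missed: for 37 of the 38 the whole interval lay inside 1.5-fold, between -0.53 and 0.47 on the log2 scale. Psme3 was the exception, since null livers on Wy14643 were at 6.73, 6.93, 6.95 and 4.98, with the fourth far below the others. At a second Psme3 probe set the null difference was -0.04, with a 95% interval from -0.29 to 0.20.

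**Figure D4:**
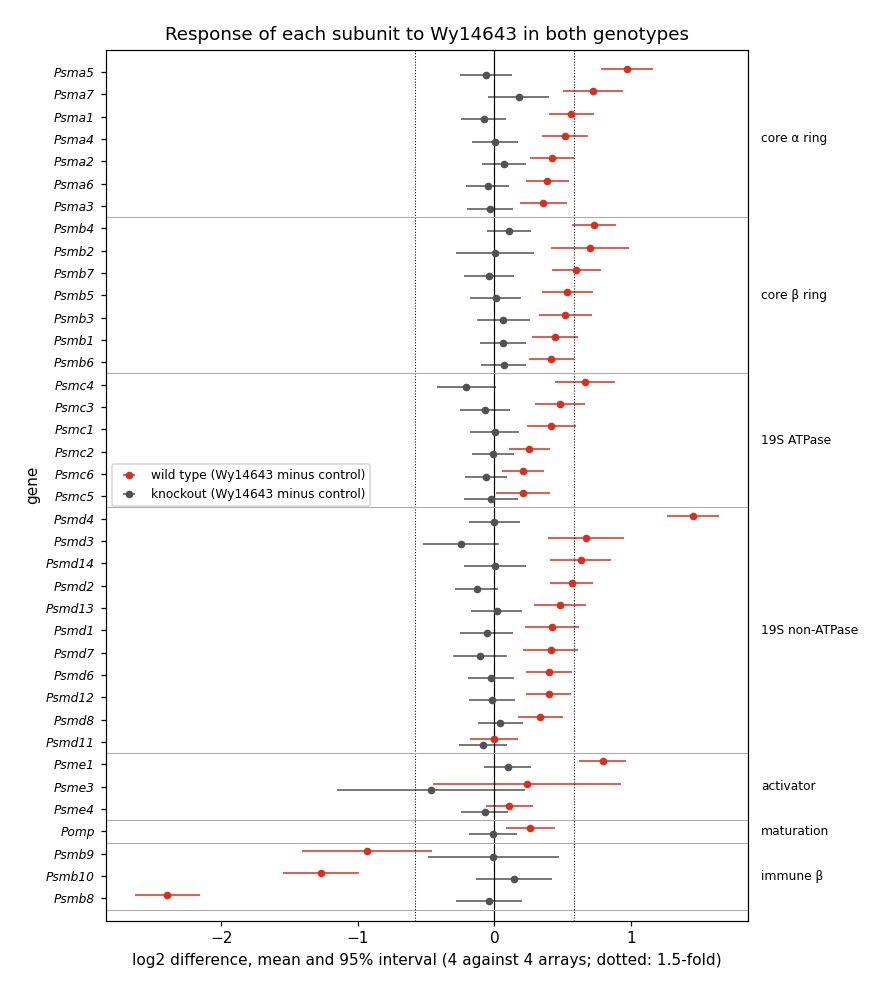
Log2 difference between Wy14643 and control food for each proteasome transcript, in wild-type (red) and PPARα-null (grey) mice, with the 95% interval of the limma fit (4 against 4 arrays). Dotted lines mark 1.5-fold: 10 wild-type points lie beyond it on the right and 3 on the left, and in null mice only the interval of Psme3 crosses a dotted line.

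The difference between the responses of the genotypes was tested directly as an interaction. It was called for 12 of the 38 transcripts, 10 with a higher response in wild type and 2 with a lower one, or 26.3% and 5.26% against 5.38% and 4.62% of all genes and 9.73% and 10.7% of the brighter genes. Without a minimum fold 14 and 2 passed, against 5.71% and 4.99% of all genes and 10.5% and 11.6% of the brighter genes. This total of 16 was 30 with an offset of 16, 28 with trended robust moderation and 29 among probe sets with a mean log2 value above 4, where 11.9%, 12.3% and 29.1% of the genes tested passed. It was 11 with the replicate number as a block, where 9.86% of the genes passed, against 10.7% in the main fit. The 10 were Psma1, Psma5, Psmb4, Psmb7, Psmc4, Psmd2, Psmd3, Psmd4, Psmd14 and Psme1. Psmd4 differed most among them, with a response 1.45 ± 0.13 higher in wild type (adjusted p = 3.10e-07), followed by Psma5 with 1.03 ± 0.13 (adjusted p = 2.09e-05). The 2 were Psmb8 (-2.36 ± 0.16, adjusted p = 1.54e-08) and Psmb10 (-1.41 ± 0.19, adjusted p = 4.20e-05). For Psmb9 the responses were -0.93 in wild type and -0.01 in null mice, and their difference did not pass (adjusted p = 0.0738). The call of Psmd14 (adjusted p = 0.00932) did not hold in 12 of the 16 fits that left out 1 array, nor with the replicate number as a block or quantile normalization. That of Psmb7 did not hold without null Wy14643 replicate 4, where its difference was 0.58, and those of Psma1 and Psmd2 did not hold with the mean of all probe sets of a gene, where they were 0.41 and 0.46.

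The study's own contrast set wild-type against null mice, both on Wy14643. There, 12 of the 38 transcripts were higher in wild type and 3 lower, or 31.6% and 7.89% against 8.12% and 7.13% of all genes and 13.9% and 15.2% of the brighter genes, and 28 and 3 passed without a minimum fold, against 10.4% and 9.73% of all genes and 19% and 20.8% of the brighter genes. This contrast shares the wild-type Wy14643 livers with the wild-type response. In addition to 9 of the 10 transcripts called there, it called Psma1 (0.61), Psmb5 (0.62) and Psmd2 (0.60), each just over 1.5-fold, and it left Psmb7 just below (0.56). Psma1, Psmb5, Psmd2 and Psme1 (0.60) were each not called in 2 of the 16 fits that left out 1 array. Psmb5, Psmd2 and Psme1 were not called after quantile normalization, nor Psma1 and Psmd2 with the mean of all probe sets of a gene (0.37 for both). Psmd4 was 2.85-fold higher in wild type (adjusted p = 7.03e-10) and Psmb8 7.29-fold lower (adjusted p = 2.90e-12). Psmb9 and Psmb10 were 2.49-fold and 2.74-fold lower (adjusted p = 0.000284 and 1.93e-07), and both calls held without any single array. The ratio of Psmb8 to Psmb5 was 11.2-fold lower in wild type, with p = 0.0286 by the exact permutation test. That p was again fixed by the separation of both genes.

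On control food the genotypes were close. With limma, 0 of the 38 transcripts were called, against 0.401% of all genes higher and 0.143% lower (0.939% and 0.309% of the brighter genes), and 1 had an unadjusted p under 0.05, against 9.6% of all genes and 14.5% of the brighter genes. That one was Psmb8, lower in wild type by 0.51 (unadjusted p = 0.000321, adjusted p = 0.0501), with all 4 wild-type controls below all 4 null controls. Such a separation was seen downwards in 2 of the 38, Psmb8 and Psmc6 (-0.08), against 3.99% of all genes and 6.76% of the brighter genes, and upwards in 1, Psmd8 (0.13), against 4.18% and 7.1%. The difference between Psmb8 and Psmb5 was 0.60 lower in wild type (exact p = 0.0286, adjusted p = 0.049). Psmb9 and Psmb10 differed by -0.39 and -0.04, with overlapping groups. Over the standard core the median difference was 0.05 with a range from -0.08 (Psmb7) to 0.18 (Psma7).

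Promoters are shown for the transcripts at both ends of the response and for the standard partner of Psmb8. The sequences are RefSeq's, on build GRCm38.p6, and give the 250 bases before the annotated start of the gene in its own direction, 5′ to 3′. Capitals mark matches, on either strand, to TGACNNNGC (the antioxidant response element, bound by NFE2-related factors with small MAF partners), CCAAT (the box bound by NF-Y), TTCNNNGAA (the GAS element, bound by STAT dimers) or GAAA repeated after a gap of any 2 bases (the core of the interferon-stimulated response element). No match to an ideal PPAR element, AGGTCA repeated after a gap of any 1 base, was present in any member's window. The windows are chr3:95042615-95042864 (Psmd4, minus strand), chr3:108256676-108256925 (Psma5, plus strand), chr14:54617996-54618245 (Psmb5, minus strand) and chr17:34197945-34198194 (Psmb8, plus strand).
Psmd4: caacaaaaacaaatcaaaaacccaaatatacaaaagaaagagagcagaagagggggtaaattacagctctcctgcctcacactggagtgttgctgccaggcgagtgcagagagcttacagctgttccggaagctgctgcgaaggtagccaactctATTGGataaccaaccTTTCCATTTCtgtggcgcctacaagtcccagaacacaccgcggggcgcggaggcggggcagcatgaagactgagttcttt
Psma5: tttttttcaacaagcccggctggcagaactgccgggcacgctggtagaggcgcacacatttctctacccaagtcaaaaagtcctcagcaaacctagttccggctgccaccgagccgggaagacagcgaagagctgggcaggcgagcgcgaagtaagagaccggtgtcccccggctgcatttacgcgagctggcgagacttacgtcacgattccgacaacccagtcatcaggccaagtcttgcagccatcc
Psmb5: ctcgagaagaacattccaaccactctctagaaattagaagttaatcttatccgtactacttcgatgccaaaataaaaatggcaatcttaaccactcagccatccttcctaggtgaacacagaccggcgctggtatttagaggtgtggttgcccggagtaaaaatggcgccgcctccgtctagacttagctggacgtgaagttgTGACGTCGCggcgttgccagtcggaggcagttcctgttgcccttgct
Psmb8: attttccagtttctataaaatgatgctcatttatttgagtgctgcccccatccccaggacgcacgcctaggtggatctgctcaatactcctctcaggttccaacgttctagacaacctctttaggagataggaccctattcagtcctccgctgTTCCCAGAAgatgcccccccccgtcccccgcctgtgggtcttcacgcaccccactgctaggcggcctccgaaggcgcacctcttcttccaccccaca

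The capitals in Psmd4 are a CCAAT box on the opposite strand, 95 to 91 bases before the start, and the interferon-type core on the opposite strand, 80 to 71 bases before it. Those in Psmb5 are the antioxidant element TGACGTCGC, 47 to 39 bases before the start, and those in Psmb8 the GAS element TTCCCAGAA, 97 to 89 bases before it. Psma5 held none of these letters in its window. No marked match overlapped another. Windows of the same length were available for 33 of the 39 members (36 windows, as some genes have more than 1 start) and not for Psmb1, Psmb2, Psmb7, Psmc3, Psmd3 and Psmd7. The antioxidant element was in 11.1% of the members' windows (Psmb5, Psmb6, Psmc6 and Psmd12) and in 10.2% of all 32851 windows. The CCAAT box was in 33.3% and 33.8%. The GAS element was in 2.78% (Psmb8) and 7.02%, the interferon-type core in 5.56% (Psmb3 and Psmd4) and 2.98%, and the PPAR element in 0% and 0.0335%. These matches describe letters only, and no binding was measured.

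Other genes of the pathway were read from lists. Among 13 measured assembly factors, inhibitors and tissue-specific subunits, 3 rose in wild type and none fell, with a median of 0.17. Of all genes 7.72% were called higher and 6.74% lower, and of the brighter genes 12.9% and 14.8%. Ecpas, which links the core to the 19S particle, rose by 0.97 (adjusted p = 4.28e-07). Psmf1, the proteasome regulator PI31, rose by 0.80 (adjusted p = 4.37e-06). Psma8, an α subunit of the testis, rose by 0.83 (adjusted p = 0.00314) at a low level, 2.58 to 3.05 in controls and 3.00 to 4.22 on Wy14643, with overlap. The chaperones Psmg1, Psmg2, Psmg3 and Psmg4 differed by 0.12, 0.17, -0.04 and 0.11, none past the threshold.

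In wild type 7.72% of all genes were called higher and 6.74% lower, against 12.9% and 14.8% of the brighter genes. Of 7 measured transcription factors and their partners known to control proteasome or antioxidant genes, 1 was called. Nfe2l1, the factor that raises proteasome subunit genes when proteasome activity is short, was at 5.26, 5.72, 5.79 and 5.97 in wild-type controls and at 7.62, 7.67, 7.49 and 7.15 on Wy14643. Null livers were at 5.30, 5.41, 5.24 and 5.35 on control food and at 5.43, 5.30, 5.28 and 4.41 on Wy14643. Its wild-type livers on Wy14643 were clear of the other 12, with a rise of 1.80 ± 0.19 (adjusted p = 1.75e-06) and an interaction of 2.02 (adjusted p = 5.29e-05). Nfe2l2, which encodes the antioxidant factor NRF2, differed by 0.11 (adjusted p = 0.750). Of 12 targets of NRF2, 3 rose and 4 fell, with a median of 0.05. Abcc4, an export pump, rose by 4.77 and Srxn1, a sulfiredoxin, by 1.58, while Gsta4, a glutathione transferase, fell by 2.09. The mean of Abcc4 in wild-type controls was 2.52, near the highest array median of 2.24, so the size of its rise is uncertain.

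Of 18 measured genes that ubiquitinate substrates or carry them to the proteasome, 3 rose past the fold limit, 8 rose without it and none fell, with a median of 0.32. Among all genes 7.72% rose past the fold limit and 9.91% without it, and among the brighter genes 12.9% and 17.7%. Zfand2a, a proteasome-associated zinc finger protein, rose by 0.76 (adjusted p = 0.000855). Ube4b, a ligase that extends ubiquitin chains, rose by 0.66 (adjusted p = 0.00064) and Ubqln2, a shuttle factor, by 0.63 (adjusted p = 0.00054). The segregase Vcp and its cofactors Ufd1 and Nploc4 rose by 0.56, 0.48 and 0.46, and the deubiquitinases Usp14 and Uchl5, which dock on the 19S particle, by 0.49 and 0.46, all at an adjusted p under 0.01.

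The immune subunits belong with the genes of MHC class I antigen presentation and of the interferon response. In wild type 6.74% of all genes fell, or 9.07% without a minimum fold, against 14.8% and 19.9% of the brighter genes. Of 11 measured presentation genes, 4 fell and none rose, 7 fell without a minimum fold, and the median was -0.46. Tap2, one chain of the peptide transporter whose gene lies beside Psmb8, fell by 0.89 (adjusted p = 0.000981). Its level was low, with means of 3.45 in wild-type controls and 2.56 on Wy14643. Tap1, the other chain, differed by -0.52 (adjusted p = 0.216). The chaperones Calr and Pdia3 fell by 1.06 and 0.70, and the class I heavy chain H2-K1 by 0.62 (adjusted p = 9.51e-06). Of 18 interferon-response genes, 5 fell and none rose, with a median of -0.52. Stat2, a signal transducer of type I interferon, fell by 1.16 (adjusted p = 2.94e-05) and Irgm1, an interferon-induced GTPase, by 1.10 (adjusted p = 3.06e-06). In null mice 0 genes of either list were called, where 0% of all genes were called lower, and the differences there were -0.49 for Tap2, -0.41 for Calr, -0.36 for Pdia3 and -0.51 for Stat2. The difference between the genotypes' responses was called for 1 of the 11 presentation genes, H2-K1, and for 1 of the 18 interferon-response genes, Irgm1. Both had a lower response in wild type, a call that 4.62% of all genes and 10.7% of the brighter genes received.

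**Figure D5:**
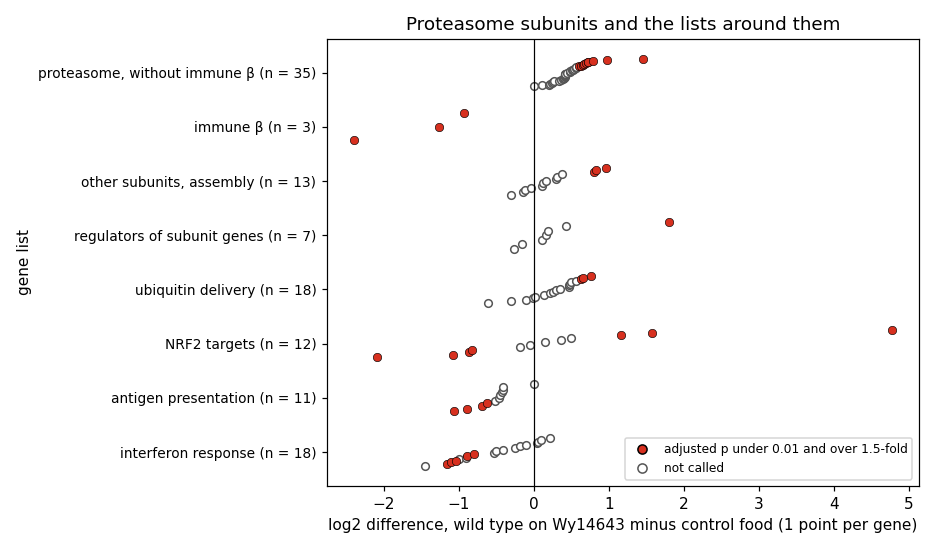
Log2 difference between wild-type livers on Wy14643 and on control food, 1 point per gene, for the proteasome transcripts and the lists around them. Filled points passed an adjusted p under 0.01 and 1.5-fold, and the medians are 0.44 for the 35 proteasome transcripts other than immune β, -0.46 for antigen presentation and -0.52 for the interferon response.

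Non-parenchymal cell markers changed alongside, where 6.74% of all genes and 14.8% of the brighter genes were called lower in wild type. Of 15 Kupffer cell (liver macrophage) markers, 11 fell in wild type on Wy14643, with a median of -0.83, and Clec4f, Adgre1 and Vsig4 fell by 1.04, 0.96 and 0.94. Their summed intensity was 2944 to 3120 in wild-type controls, 1807 to 2000 on Wy14643, 2942 to 3550 in null controls and 2550 to 3335 in null livers on Wy14643. Of 12 dendritic cell and monocyte markers 3 fell and none rose, with a median of -0.05. Those 3, the MHC class II genes Cd74, H2-Aa and H2-Ab1 fell by 0.89, 0.98 and 0.95, and the summed intensity of the 12 was 616 to 725 in wild-type controls, 299 to 435 on Wy14643, 546 to 828 in null controls and 436 to 623 in null livers on Wy14643. Of the 12, 8 had group means at or below 2.24, the highest array median, in every group, so the median of the list says little. Among these 8 were the defining markers Itgax, Flt3, Xcr1, Cd209a and Ccr2. Of 14 lymphocyte markers none passed, and 9 had group means at or below that level in every group. Psmb8, Psmb10 and Psmb9 fell by 2.40, 1.27 and 0.93, and the Kupffer markers by a median of 0.83. The part of such cells in the fall of the immune subunits was not tested.

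The shares called in wild type were 6.74% lower and 7.72% higher among all genes, and 14.8% and 12.9% among the brighter genes. Of 15 stellate cell markers 6 fell, with a median of -0.32 and a summed intensity of 2791 to 3045 in wild-type controls, 1808 to 2055 on Wy14643 and 2957 to 3558 over both null groups. Of 15 endothelial markers 3 fell and 1 rose, with a median of -0.36 and sums of 1938 to 2226, 1533 to 1683 and 1805 to 2128. Of 13 hepatocyte markers 4 fell and none rose, with a median of -0.38 and sums of 110300 to 113800, 85680 to 91140 and 107000 to 110000. Proliferation genes rose: 11 of 15 measured passed, with a median of 1.85, and their summed intensity was 432 to 500 in wild-type controls, 871 to 2048 on Wy14643 and 413 to 579 over both null groups. Mcm5, a replication helicase subunit, rose by 4.64, from a wild-type control mean of 2.54, near the highest array median of 2.24. The part of this change in the rise of the core and 19S transcripts was not tested.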

How the data were processed

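Liver RNA from 16 mice was hybridised by the authors to Affymetrix mouse genome 430 2.0 arrays. Per the labels the arrays were normalized with GCRMA (version 2.20 in the submitters' processing notes), and the deposited values are intensity on a linear scale, as read from their range, which were converted here to log2. Of 45101 probe sets, 64 controls were left out. Of the 45037 tested, 34945 were annotated to 1 gene, 932 to several and 9160 to none in GEO's platform annotation. Each of 18193 genes was read from its brightest single-gene probe set.

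A mean per group was fitted over all 16 arrays with limma 3.58.1 in R 4.3.3 (eBayes, Benjamini-Hochberg over all probe sets). Calls used the study's limits, an adjusted p under 0.01 and over 1.5-fold. The limma p-values weigh a difference against the spread between mice, taken over the 4 groups and moderated towards that of all probe sets. In the wild-type response the lowest SE of a member was 0.072, close to the lowest of any gene, 0.068. The number of arrays limits the precision. The fit was tested on simulated data. The members, the lists and the genes named (the immune subunits, their partners and Pomp, and in each class the strongest and weakest responders, plus the strongest of each list) were chosen with earlier results of these data known; Psma1, Psmb1, Psmb3, Psmc1, Psmc2, Psmc3, Psmc6, Psmd2, Psmd7, Psmd8, Psmd12, Psme3, Tap1, H2-K1, Psmg1 to Psmg4, Vcp, Ufd1, Nploc4, Usp14 and Uchl5 were added after their values were seen. Alternatives covered scaling, dim probe sets, an intensity offset, probe sets per gene, moderation, array weights, the arrays fitted, thresholds, the replicate number as a block and each array left out.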

Additional observations from a re-analysis of the deposited data

Results flagged for a closer look

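The response to Wy14643 differed between wild-type and PPARα-null mice in 12 transcripts, by the limma test of the interaction. On the log2 scale the wild-type response was higher by 0.64 for Psma1, 1.03 for Psma5, 0.62 for Psmb4, 0.64 for Psmb7, 0.87 for Psmc4, 0.70 for Psmd2, 0.92 for Psmd3, 1.45 for Psmd4, 0.63 for Psmd14 and 0.69 for Psme1. It was lower for Psmb8 (-2.36) and Psmb10 (-1.41). A higher response was called for 5.38% of all genes and 9.73% of the brighter genes, and a lower one for 4.62% and 10.7%. The call of Psmd14 did not hold in 12 of the 16 fits that left out 1 array. Limits on the calls of Psma1, Psmb7 and Psmd2 are given with the interaction above.

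In 7 of 152 groups of 4 livers examined, 1 liver stood far from the other 3, where chance gives about 1 in 20. Wild-type Wy14643 replicate 4 was low for Psmb2 (8.83, the nearest at 8.97) and Psmc5 (9.24, the nearest at 9.39). Wild-type control replicate 1 was high for Psmc1 (9.20, the nearest at 8.98), and wild-type control replicate 3 was low for Psmd1 (9.54, the nearest at 9.67). Null Wy14643 replicate 3 was low for Psmc2 (10.39, the nearest at 10.46). Null Wy14643 replicate 4 was low for Psmc3 (9.25, the nearest at 9.49) and Psme3 (4.98, the nearest at 6.73).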

How the results depend on the processing

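No called difference of a proteasome transcript changed direction under the alternatives run. Leaving out 1 array at a time gave 12 to 14 calls for the wild-type response (13 with all arrays), 11 to 16 for the genotypes on Wy14643 (15), 11 to 13 for the interaction (12) and 0 for the null response and the genotypes on control food. The catalytic pairs that passed ranged from 0 to 7. With no minimum fold, an adjusted p under 0.05 gave 34 members for the wild-type response, 32 for the genotypes on Wy14643 and 29 for the interaction, against 4733, 4988 and 2985 of all 18193 genes and 3665, 3765 and 2388 of the 7451 brighter ones, and an adjusted p under 0.01 gave 31, 31 and 16 members. The latter counts under the other alternatives were chosen after seeing the data. With 1 array left out they ranged from 26 to 31 for the wild-type response and from 11 to 17 for the interaction. For the interaction they were 11 with the replicate block, 29 among probe sets with a mean log2 value above 4, 30 with an offset of 16 and 28 with trended robust moderation, and the cause was not tested. The shares of all genes tested were 9.86%, 29.1%, 11.9% and 12.3% in that order, against 10.7% in the main fit. Centring or quantile normalization left the median wild-type change of all genes at -0.01 or -0.02, against -0.03 as deposited.

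The labels do not say that replicate numbers mark pairs, and the main fit did not treat them so. Same-numbered arrays deviated together with correlations of -0.12 to 0.19, over 0.1 in 6 of 24 pairs, against a median of -0.02 between different numbers. Of 16 arrays, 6 matched their own number best, and the number expected by chance was not computed. Whether the number marks a batch was not tested. With the replicate block, 12 members were called for the wild-type response, 0 for the null response, 15 and 0 for the genotypes on Wy14643 and control food, and 11 for the interaction. The arrays give no count depth, and the dimmest member, Psmb9, was the one whose call was lost most often in the wild-type response.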
